A study of Mus musculus with 8 samples.

Results

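AMPA receptors are the ion channels that carry most of the fast excitatory current at synapses of the brain. Each channel is assembled from 4 core subunits in varied mixtures. The kinds of core subunit are GluA1 to GluA4, which are encoded by Gria1, Gria2, Gria3 and Gria4. Here these 4 genes were taken by symbol from the table of hippocampal counts, in which they made up 4 of 19558 genes and 24 of 74764 transcripts. Gria1 had 5 transcripts in the table, Gria2 had 7, Gria3 had 8 and Gria4 had 4. Counts were summed per gene, and every single transcript was also kept.

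The libraries came from the hippocampus of wild-type mice of the C57BL/6 KP strain at postnatal day 40. One group of 4 received KU55933, a small-molecule blocker of the DNA damage kinase ATM, and the other group of 4 received vehicle, which was 4% DMSO in saline. Both were given through the nose to anesthetized animals in portions of 3 µL, with a stated dose of 7.5 mg/kg that the labels also attach to the vehicle. The sources used here give no time from dosing to collection, no sex of the animals and no batch. The labels give 4 samples per group from treated mice without saying whether animals were pooled, so the p-values measure the spread between these samples. The comparison of KU55933 with vehicle asks here whether the mRNA of the AMPA receptor core, its mixture of subunits or its splice forms differ when ATM is blocked.

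In the adult forebrain most AMPA receptors contain GluA2 together with GluA1 or GluA3. GluA2 sets the calcium permeability of the channel, because its mRNA is edited in the pore region. GluA1 carries phosphorylation sites used in long-term potentiation, the lasting strengthening of synapses, and is the main partner of GluA2 in hippocampal pyramidal cells. GluA3 pairs with GluA2 in receptors that cycle into synapses without strong activity. GluA4 is abundant early in life and later in interneurons, in the cerebellum and in the thalamus. The RNA of each of the 4 genes is spliced to hold either the flip or the flop exon. These alternatives encode the same short stretch of the ligand-binding domain and differ in how fast the channel desensitizes.

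The flip and flop exons are shown because they decide which transcripts are named flip or flop below. The counts are estimated over whole transcripts, which can also differ outside these exons. Each exon was 115 bases long, and flop was taken as the one whose translation holds 3 glycines in a row. Sequence and positions are those of GENCODE mouse release 21 on build GRCm38, whereas the counts were made by the authors on GRCm39. All 8 stretches are internal coding exons, written 5′ to 3′ on the gene's own strand, with capitals for the bases that differ between flip and flop of that gene.
Gria1 flip, chr11:57310608-57310722, plus strand: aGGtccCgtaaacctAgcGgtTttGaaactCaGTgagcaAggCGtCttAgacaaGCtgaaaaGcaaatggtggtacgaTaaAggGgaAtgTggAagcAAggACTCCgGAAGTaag
Gria1 flop, chr11:57309769-57309883, plus strand: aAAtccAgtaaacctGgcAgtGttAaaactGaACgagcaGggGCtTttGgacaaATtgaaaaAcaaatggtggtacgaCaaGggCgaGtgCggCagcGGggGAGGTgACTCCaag
Gria2 flip, chr3:80690404-80690518, minus strand: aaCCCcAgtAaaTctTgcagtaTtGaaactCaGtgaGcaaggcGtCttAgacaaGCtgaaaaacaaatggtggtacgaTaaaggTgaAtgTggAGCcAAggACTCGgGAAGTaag
Gria2 flop, chr3:80691320-80691434, minus strand: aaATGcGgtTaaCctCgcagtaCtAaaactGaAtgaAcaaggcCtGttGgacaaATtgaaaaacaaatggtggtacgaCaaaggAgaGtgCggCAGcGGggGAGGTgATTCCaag
Gria3 flip, chrX:41669501-41669615, plus strand: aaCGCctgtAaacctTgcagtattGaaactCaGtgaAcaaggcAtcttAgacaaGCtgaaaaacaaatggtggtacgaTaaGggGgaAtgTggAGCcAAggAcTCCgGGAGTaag
Gria3 flop, chrX:41654810-41654924, plus strand: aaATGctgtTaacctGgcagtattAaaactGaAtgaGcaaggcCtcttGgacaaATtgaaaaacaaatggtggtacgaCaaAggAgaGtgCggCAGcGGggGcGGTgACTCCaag
Gria4 flip, chr9:4427030-4427144, minus strand: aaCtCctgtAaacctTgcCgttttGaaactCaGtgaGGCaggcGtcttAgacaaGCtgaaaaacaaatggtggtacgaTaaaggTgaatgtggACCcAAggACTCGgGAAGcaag
Gria4 flop, chr9:4432773-4432887, minus strand: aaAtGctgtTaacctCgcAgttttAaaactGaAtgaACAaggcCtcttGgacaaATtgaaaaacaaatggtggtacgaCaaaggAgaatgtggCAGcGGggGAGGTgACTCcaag

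Flip and flop of 1 gene differed at 36 of 115 bases in Gria1 and in Gria2, at 32 in Gria3 and at 31 in Gria4, an identity of 68.7%, 68.7%, 72.2% and 73.0%. The same kind of exon was more alike between genes than the 2 kinds were within a gene. Flip exons were 87.8 to 92.2% identical over the 6 pairs of genes, and flop exons were 87.8 to 94.8% identical.

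The libraries held 34190440 to 46630341 estimated counts, and the 4 genes took 0.223 to 0.284% of them. In a single library the counts ran from 43508 to 54377 for Gria1, from 30669 to 40382 for Gria2, from 8293 to 9788 for Gria3 and from 1998 to 2831 for Gria4. Markers of the hippocampal fields were present in every library, with summed levels of 394 to 822 CPM, a count scaled by the TMM-adjusted library size, for the CA1 list, 846 to 1052 CPM for the CA3 and CA2 list and 537 to 1024 CPM for the dentate list. The dentate list stood at 656 to 1024 CPM in vehicle and at 537 to 678 CPM in KU55933. By edgeR 0 of its 10 genes were called higher and 3 lower, against 6.92% and 14.6% of all genes, and 0 were called with the offset described below. Markers of the choroid plexus, the epithelium that makes cerebrospinal fluid, summed to 172 to 340 CPM in vehicle and to 1943, 1817, 269.9 and 229 CPM in KU55933 1 to 4, and 1 of 13 was called higher by edgeR. Expression also leaned on the GC content of genes in opposite ways in the groups, with a slope per 10 percentage points of 0.14 to 0.27 on the log2 scale in vehicle and of -0.35 to -0.12 in KU55933. KU55933 1 and 2, the libraries with high choroid plexus markers, also had the most negative slopes, at -0.28 and -0.35, against -0.12 in KU55933 3 and 4. The comparisons of genes, transcripts, subunit shares and lists are therefore also given with an offset. It takes out the trend of every library with GC content and with the length of transcripts. The GC slopes of the 2 groups did not overlap. A trend with GC that comes from KU55933 and one that comes from the libraries therefore cannot be told apart, and the offset takes out both. In tissue RNA, fewer cells of a type and less RNA per cell cannot be told apart.

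Levels of different genes were compared per length, in TPM, the count per kilobase of transcript scaled to the same total in each library. Gria1 was the most abundant of the 4, at 554 ± 18.6 TPM in vehicle and 566 ± 36.7 TPM in KU55933 (mean ± SD, n = 4 per group, here and below). Gria2 followed at 365 ± 14.1 and 416 ± 71.1 TPM, Gria3 at 102 ± 2.57 and 120.1 ± 13.8 TPM, and Gria4 at 29.7 ± 3.32 and 39.5 ± 2.94 TPM. This order held in all 8 libraries, and the ranges of neighbouring genes did not overlap. Within a library Gria1 stood at 1.15 to 1.59 times Gria2, Gria2 at 2.96 to 4.28 times Gria3, and Gria3 at 2.79 to 3.83 times Gria4. For scale, Grin1, the obligatory NMDA receptor subunit gene, had 320 ± 23.4 TPM in vehicle and Grik5, the most abundant of the kainate receptor genes, had 171 ± 19.96 TPM.

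One of the 4 genes, Gria4, passed the test between the groups. It rose 1.26-fold in KU55933, a call that ended with the GC and length offset, while Gria1, Gria2 and Gria3 did not pass. Calls were made by edgeR's quasi-likelihood F test with Benjamini-Hochberg adjustment over 15481 genes at a threshold of 0.05. The count of 1 of 4 genes called compares with 21.6% of all genes tested called in either direction and 6.92% called higher. The 2 groups did not overlap for 2 of the 4 genes, Gria3 and Gria4, against 26.7% of all genes tested. The median log2 change of all genes tested was 0.01.

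Gria1, whose product GluA1 carries the phosphorylation sites, had 1193, 1292, 1224 and 1304 CPM in vehicle 1 to 4. In KU55933 1 to 4 it had 1321, 1298, 1195 and 1227 CPM. The groups overlapped nearly fully, with the lowest library in vehicle and the highest in KU55933. Means were 1253 ± 53.5 and 1260.1 ± 59.1 CPM, and the log2 change was 0.01 ± 0.07 (SE), with a 95% interval of -0.14 to 0.16 (edgeR, adjusted p = 0.947). Its sign turned with the offset and in several fits that left out libraries.

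Gria2, whose product limits calcium entry, had 817, 886, 898 and 855 CPM in vehicle 1 to 4. In KU55933 1 to 4 it had 897, 1090.3, 855 and 1139 CPM. KU55933 2 and 4 lay above every vehicle library, while KU55933 1 and 3 lay within the vehicle range. Means were 864 ± 36.3 and 995 ± 140.0 CPM, and the log2 change was 0.20 ± 0.10 (SE), with a 95% interval of -0.01 to 0.42 (edgeR, adjusted p = 0.151). The mean of Gria2 in KU55933 thus stands for 2 libraries near vehicle and 2 above it.

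Gria3, the gene of the X chromosome among the 4, had 209, 216, 223 and 218 CPM in vehicle 1 to 4. In KU55933 1 to 4 it had 259.7, 276, 228 and 234 CPM. Every KU55933 library lay above every vehicle library, with KU55933 3 closest to the highest vehicle library, and the 2 libraries with high choroid plexus markers, KU55933 1 and 2, were the highest. Means were 217 ± 5.77 and 249 ± 22.2 CPM, and the log2 change was 0.20 ± 0.08 (SE), with a 95% interval of 0.04 to 0.37 (edgeR, adjusted p = 0.0761). It missed the threshold in edgeR and passed it with DESeq2 (log2 change 0.21, adjusted p = 0.0329). Without KU55933 1 and 2 the log2 change was 0.10 (edgeR, adjusted p = 0.35), and the part of the choroid plexus signal in the result was not tested. These libraries also had the most negative GC slopes, so the 2 traits cannot be told apart by leaving them out.

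Gria4, the least abundant of the 4, had 62.1, 51.6, 57.3 and 49.5 CPM in vehicle 1 to 4. In KU55933 1 to 4 it had 73.3, 67.6, 66.3 and 70.2 CPM. All KU55933 libraries lay above all vehicle libraries, and the gap between the groups lay between vehicle 1 and KU55933 3. Means were 55.1 ± 5.69 and 69.3 ± 3.07 CPM, and the log2 change was 0.33 ± 0.08 (SE), with a 95% interval of 0.15 to 0.51 (edgeR, adjusted p = 0.0195). The call ended without vehicle 2 (log2 change 0.30, adjusted p = 0.0645 by edgeR), without vehicle 4 (0.28, adjusted p = 0.0627), and without KU55933 1 and 2 together (0.31, adjusted p = 0.0993). It also ended with the GC and length offset (0.14, edgeR adjusted p = 0.371) and with a GC offset alone (0.15, adjusted p = 0.397). The plot of subunit levels by library shows these values.

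**Figure D1:**
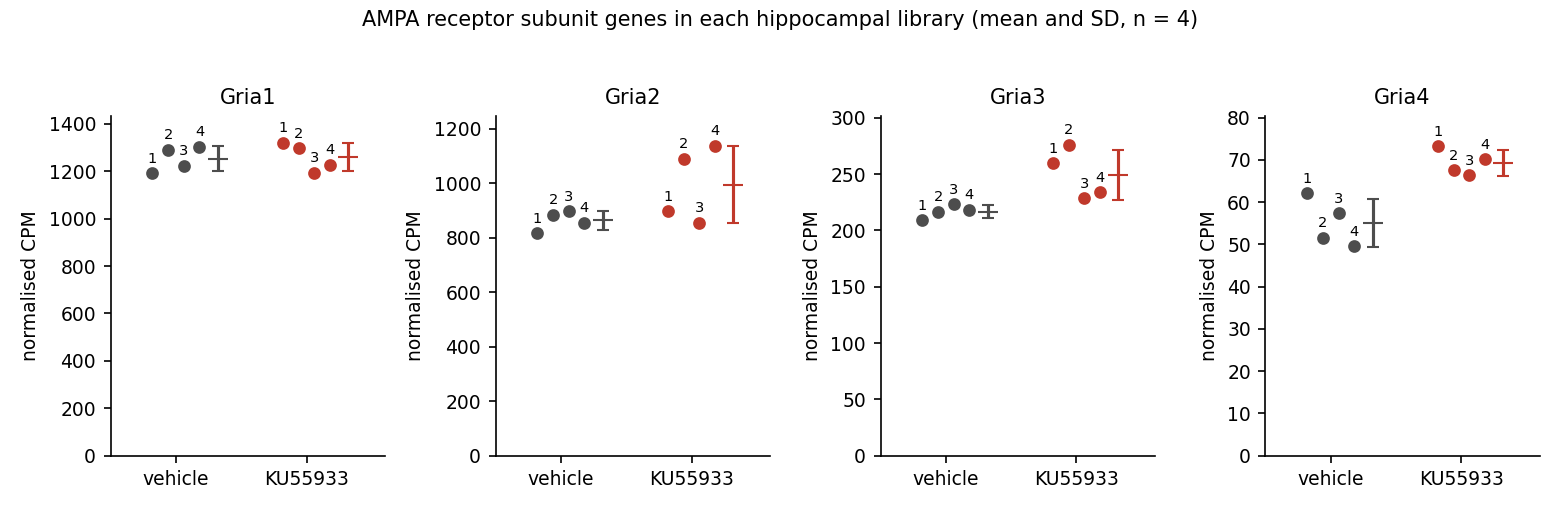
Normalised CPM (y axis, from 0) of Gria1, Gria2, Gria3 and Gria4 in the 4 vehicle and 4 KU55933 libraries (x axis), with replicate numbers above the points and mean ± SD bars beside them. Gria1 overlaps between groups around 1250 CPM, KU55933 2 and 4 stand above the rest for Gria2, and for Gria3 and Gria4 all KU55933 points lie above all vehicle points.

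Markers of other cells that are known for GluA4 were read beside the Gria4 result. The list for thalamic and other subcortical neurons summed to 147, 144, 133 and 146 CPM in vehicle 1 to 4 and to 209, 174, 127 and 214 CPM in KU55933 1 to 4. Of its 12 tested genes 3 were called higher and 0 lower (edgeR), against 6.92% and 14.6% of all genes, and 0 were called with the GC and length offset. Among them was Slc17a6, the vesicular glutamate transporter gene of such neurons, at 4.39 to 10.9 CPM in vehicle and 12.3 to 21.7 CPM in KU55933. Another gene of the list, Gbx2, was at 0.902 CPM or below in all libraries and at 0 in KU55933 2. The median log2 change of the tested genes of the list was 0.43, and 0.38 with the offset. Interneuron markers summed to 1482 to 1669 CPM in vehicle and 1414 to 1693 CPM in KU55933, and 0 of 14 were called higher and 4 lower, with 0 called under the offset. The choroid plexus list likewise had 0 called under the offset. The part of these markers in the Gria4 result was not tested.

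With this GC and length offset, 0 of the 4 genes passed, against 1.96% of all genes called in either direction and 0.672% called higher in that fit. The 4 genes have a GC content of 48.6% for Gria1, 41.2% for Gria2, 43.0% for Gria3 and 43.7% for Gria4. The trend taken out at these genes was 0.11 for Gria1, 0.23 for Gria2, 0.21 for Gria3 and 0.20 for Gria4, as log2 KU55933 against vehicle. With the offset the log2 change was -0.11 ± 0.07 (SE) for Gria1 and -0.02 ± 0.11 for Gria2. It was -0.01 ± 0.06 for Gria3 and 0.14 ± 0.07 for Gria4. The edgeR adjusted p of these 4 values were 0.498, 0.937, 0.942 and 0.371, and Gria4, with an unadjusted p of 0.0782, was the closest to the threshold. The plot of log2 changes with and without the offset shows all 4 genes moving to the left by amounts near the trend.

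**Figure D2:**
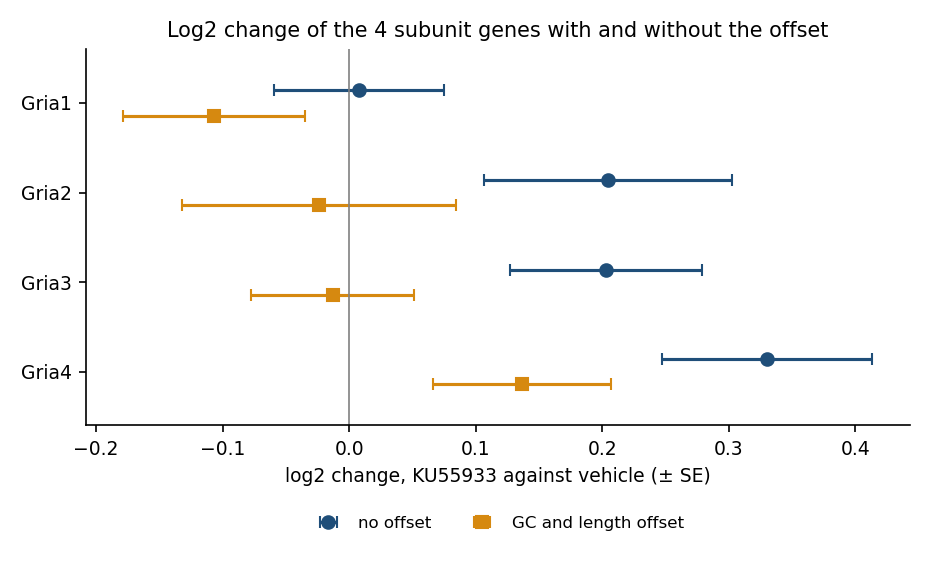
Log2 change of KU55933 against vehicle (x axis) for each subunit gene (y axis), as points with SE bars, from edgeR without an offset (circles) and with the GC and length offset (squares). Gria4 is at 0.33 without the offset and 0.14 with it, while Gria2 and Gria3 move from 0.20 to close to 0.

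The mixture of the 4 subunits was compared as each gene's share of their summed counts per kilobase. Gria1 made up 52.4, 53.5, 51.5 and 53.4% in vehicle 1 to 4 and 52.2, 48.1, 51.8 and 46.7% in KU55933 1 to 4. Gria2 made up 34.4, 34.3, 35.7 and 34.7% in vehicle and 32.8, 37.9, 33.97 and 40.6% in KU55933. In the KU55933 group the low Gria1 shares and the high Gria2 shares fell in the same libraries, 2 and 4. Gria3 made up 9.91, 9.59, 9.93 and 9.47% in vehicle and 11.1, 10.9, 10.6 and 9.49% in KU55933. Gria4 made up 3.34, 2.61, 2.89 and 2.48% in vehicle and 3.98, 3.12, 3.61 and 3.22% in KU55933.

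No subunit share passed an exact permutation test (two-sided), in which 70 arrangements of 4 against 4 allow no p below 0.0286. With the adjustment over 4 genes, a share at that p could not pass unless most of the 4 reached it too. The mean share of Gria1 went from 52.7 ± 0.951% to 49.7 ± 2.70% (exact p = 0.114), and that of Gria2 from 34.7 ± 0.634% to 36.3 ± 3.59% (exact p = 0.457). For Gria3 the means were 9.73 ± 0.231% and 10.5 ± 0.710% (exact p = 0.114), and for Gria4 2.83 ± 0.381% and 3.48 ± 0.392% (exact p = 0.0857). Adjusted over the 4 genes the permutation p were 0.152, 0.457, 0.152 and 0.152. With the GC and length offset the differences were -1.10 percentage points for Gria1 in place of -3.01, 0.035 for Gria2 in place of 1.56, 0.475 for Gria3 in place of 0.792 and 0.585 for Gria4 in place of 0.655, and none passed (exact permutation, adjusted p of 0.4 to 0.971). Without KU55933 4 the Gria2 difference was 0.141 points, and it ranged up to 2.74 points without KU55933 1. The groups overlapped for all 4 shares, and the 4 shares of a library add to a whole, so they are not independent of each other.

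Of the 24 transcripts 19 were tested and 17 had a mean of at least 1 CPM. By edgeR 0 of the 19 were called, against 6.76% of all transcripts tested, and 3 had an unadjusted p under 0.05. With the GC and length offset 0 were called, against 2.06% of all transcripts, and 1 had an unadjusted p under 0.05. The groups did not overlap for 1 of the 19, against 17.2% of all transcripts. The median log2 change of all transcripts tested was -0.07, and with the offset it was 0.06. For the 5 forms above 100 CPM on average, the offset took the log2 change of Gria1-201 from 0.10 to 0.14, of Gria1-202 from -0.11 to -0.06, of Gria2-201 from 0.26 to 0.12, of Gria2-202 from 0.24 to 0.19, and of Gria3-201 from 0.16 to 0.08. The transcript fit has its own scaling and its own trends. Its trend was -0.05 for Gria1-201 and for Gria1-202, where the gene fit had 0.11 for Gria1. In the transcript fit with the offset every tested Gria3 form had a positive log2 change, from 0.08 for Gria3-201 to 0.57 for Gria3-202. For Gria3 as a gene it was -0.01, so the offset values depend on the level of the fit. Counts per transcript are estimates that divide reads shared by several forms, and the uncertainty of that division is not used here.

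Gria1 is carried by a flip and a flop form of the same protein length, 907 residues. The flip form Gria1-201 had 528, 521, 456 and 522 CPM in vehicle 1 to 4 and 608, 582, 509 and 469 CPM in KU55933 1 to 4. The flop form Gria1-202 had 710.3, 803, 768 and 749.5 CPM in vehicle and 717, 697, 686 and 711 CPM in KU55933. The log2 changes were 0.10 ± 0.10 and -0.11 ± 0.06 (SE), and neither passed (edgeR, adjusted p = 0.679 and 0.399). A further flip form of 838 residues, Gria1-204, had a mean of 5.04 ± 1.83 CPM in vehicle and 6.00 ± 2.35 CPM in KU55933, and the 2 other Gria1 transcripts stayed below 1 CPM in every library.

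Gria2 is carried by a flop form with a last exon of 7265 bases and a flip form with one of 920 bases, both of 883 residues. The flop form Gria2-201 had 404, 470.0, 452 and 374 CPM in vehicle 1 to 4 and 473, 545, 456 and 559.5 CPM in KU55933 1 to 4. The flip form Gria2-202 had 337, 250.3, 254 and 277 CPM in vehicle and 366, 328, 295 and 329 CPM in KU55933. In both forms the KU55933 mean was the higher one and the groups overlapped, with log2 changes of 0.26 ± 0.10 and 0.24 ± 0.11 (SE, edgeR adjusted p = 0.204 and 0.291). Since the 2 forms differ in the last exon as well as in the cassette, reads of the last exon also decide how counts are divided between them.

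A part of the Gria2 counts fell on forms annotated as not coding for the full protein. The retained-intron form Gria2-206 had 56.2, 96.2, 106 and 97.0 CPM in vehicle 1 to 4 and 34.7, 99.9, 51.4 and 106 CPM in KU55933 1 to 4. The retained-intron form Gria2-204 had 42.4, 77.1, 78.3 and 76.1 CPM in vehicle and 23.1, 88.1, 44.2 and 92.3 CPM in KU55933. Both were low in the same 3 libraries, vehicle 1, KU55933 1 and KU55933 3. The form annotated for nonsense-mediated decay, Gria2-203, which holds both cassette exons, had 12.9 ± 3.39 and 11.8 ± 4.96 CPM. None of the 3 passed, with log2 changes of -0.28 ± 0.37, -0.14 ± 0.42 and -0.12 ± 0.35 (SE, edgeR adjusted p = 0.756, 0.906 and 0.905). The retained-intron form Gria2-205 had 1.14 ± 0.218 and 0.846 ± 0.143 CPM, and Gria2-207 had 1.56 CPM in KU55933 1 and at most 0.219 CPM elsewhere.

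These forms without a complete coding sequence made up 12.9, 21.1, 21.9 and 22.2% of the Gria2 counts in vehicle 1 to 4 and 7.20, 19.0, 12.6 and 19.5% in KU55933 1 to 4. Within each group the libraries stood in the same order when the retained-intron transcripts of all genes were summed, which took 2.77, 3.70, 3.85 and 4.07% of the counts in vehicle and 2.07, 4.12, 3.35 and 4.16% in KU55933. KU55933 1 was the lowest library and vehicle 1 the lowest of its group in both series. These sums were looked at after the transcript values were seen and were not tested. For Gria1 and Gria4 the corresponding shares were at most 0.0552% and 0%, and for Gria3 they ran from 11.8 to 17.3%. The short form Gria4-203, of 433 residues, is counted here as having a complete coding sequence.

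When only protein-coding transcripts were summed, a setting also chosen after the values were seen, the Gria2 groups no longer overlapped. Gria2 then had 766, 770.0, 769 and 731 CPM in vehicle 1 to 4 and 889, 983, 825 and 1008 CPM in KU55933 1 to 4, with means of 759 ± 18.8 and 926 ± 84.8 CPM. All KU55933 libraries lay above all vehicle libraries, and the spread in vehicle was smaller than for the whole gene. The log2 change was 0.29 ± 0.07 (SE, edgeR adjusted p = 0.0194), and with the GC and length offset it was 0.04 (adjusted p = 0.819). In that setting 2 of the 4 genes were called, Gria2 and Gria4, against 26.9% of all genes, and the groups did not overlap for 3 of the 4, against 29.9%. Gria4 had a log2 change of 0.33 (edgeR, adjusted p = 0.0112), Gria3 of 0.20 (adjusted p = 0.0793) and Gria1 of 0.01 (adjusted p = 0.922).

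Gria3 is carried mainly by the flip form Gria3-201, at 182, 183, 187 and 183 CPM in vehicle 1 to 4 and 223, 224, 186 and 187 CPM in KU55933 1 to 4. KU55933 1 and 2 stood above all other libraries, while KU55933 3 and 4 lay within or at the edge of the vehicle range. The log2 change was 0.16 ± 0.08 (SE, edgeR adjusted p = 0.348). The flop form Gria3-202, whose last exon has 246 bases against 2262 in the flip form, had 6.62, 1.76, 2.52 and 1.89 CPM in vehicle and 8.20, 2.68, 5.13 and 2.46 CPM in KU55933. It was high in the first library of each group (log2 change 0.53 ± 0.55 SE, edgeR adjusted p = 0.682), and the change was 1.17 without vehicle 1 and 0.12 without KU55933 1. The form Gria3-206, which holds both cassette exons and is annotated for nonsense-mediated decay, had 27.7 ± 5.16 and 32.0 ± 6.38 CPM, with a log2 change of 0.21 ± 0.18 (edgeR adjusted p = 0.605). The retained-intron forms Gria3-208 and Gria3-205 had means of 3.47 and 1.49 CPM in vehicle and 3.97 and 2.09 CPM in KU55933, and the 3 other Gria3 transcripts were below 0.1 CPM throughout.

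Gria4 is carried by 2 flop forms and 1 flip form of the same 902 residues and by a short form. The flop form Gria4-201 had 32.1, 19.9, 23.2 and 21.04 CPM in vehicle 1 to 4 and 0, 5.63, 20.3 and 27.4 CPM in KU55933 1 to 4. The estimate of 0 in KU55933 1 allows up to 0.0877 CPM by counting error alone, at 3 counts. The other flop form, Gria4-204, had 2.24, 12.5, 9.55 and 7.60 CPM in vehicle and 32.3, 27.7, 17.0 and 12.5 CPM in KU55933. Where Gria4-201 was low Gria4-204 was high, in KU55933 1 and 2, and the reverse held in vehicle 1. Gria4-204 was the transcript whose groups did not overlap, with 12.46 CPM in vehicle 2 next to 12.54 CPM in KU55933 4, with a log2 change of 1.49 ± 0.50 (SE, edgeR adjusted p = 0.136), and Gria4-201 had one of -0.85 ± 1.09 (adjusted p = 0.752). The value for Gria4-201 was -0.40 without KU55933 1, -0.56 without KU55933 2, -1.47 without KU55933 4 and -3.10 with limma-voom, and none of these passed. With the GC and length offset the 2 forms had 1.41 and -0.89.

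Summed, the 2 flop forms of Gria4 had 34.3, 32.4, 32.7 and 28.6 CPM in vehicle 1 to 4 and 32.3, 33.3, 37.3 and 39.98 CPM in KU55933 1 to 4. The sum varied far less between libraries than either form, and the groups overlapped. It was formed after the transcript values were seen and was not tested. The flip form Gria4-202 had 19.4, 12.6, 16.5 and 12.1 CPM in vehicle and 22.1, 22.3, 17.1 and 18.0 CPM in KU55933, with a log2 change of 0.39 ± 0.18 (SE, edgeR adjusted p = 0.268). Vehicle 1 lay within its KU55933 range, and the other 3 vehicle libraries lay below it. The short form Gria4-203, which encodes 433 residues and holds neither cassette exon, had 11.0, 8.23, 8.35 and 7.74 CPM in vehicle and 19.4, 11.2, 12.1 and 10.001 CPM in KU55933 (log2 change 0.58 ± 0.23 SE, edgeR adjusted p = 0.197). No single form of Gria4 passed the test. The plot of Gria2 and Gria4 transcripts shows the exchange between the Gria4 flop forms and the 3 libraries low in Gria2 retained-intron forms.

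**Figure D3:**
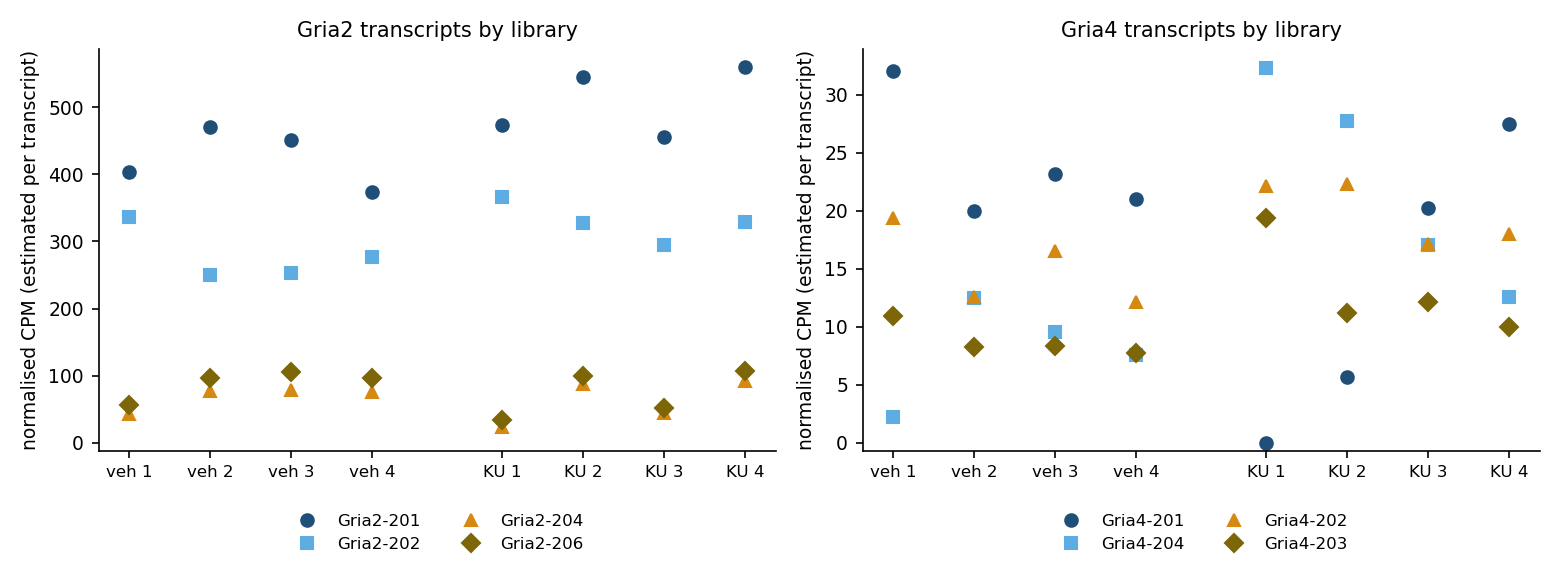
Normalised CPM estimated per transcript (y axis) in each vehicle (veh) and KU55933 (KU) library (x axis), for the 4 most abundant Gria2 transcripts (left) and the 4 Gria4 transcripts (right). Gria2-204 and Gria2-206 dip together in vehicle 1, KU55933 1 and KU55933 3, and Gria4-201 falls to 0 in KU55933 1 where Gria4-204 reaches 32.3 CPM.

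The flip share of each gene was taken per length, over the transcripts that hold only one kind of cassette exon. Gria1 had a flip share of 42.1, 39.0, 36.9 and 40.7% in vehicle 1 to 4 and of 45.5, 45.0, 42.1 and 39.6% in KU55933 1 to 4. Gria2 had 68.2, 57.8, 59.1 and 65.6% in vehicle and 66.6, 60.8, 62.5 and 60.3% in KU55933. Gria3 was nearly all flip among these transcripts, with 91.3, 95.3, 96.0 and 96.3% in vehicle and 92.3, 95.5, 92.8 and 94.8% in KU55933. Its main flip form has a last exon of 2262 bases and its complete flop form one of 246 bases. The Gria3 share thus also depends on how reads of the last exon are divided. The Gria3 form with both cassette exons, at means of 27.7 CPM in vehicle and 32.0 CPM in KU55933, is not in the share. Its flop-only forms summed to means of 6.66 and 8.58 CPM. Gria4 was mostly flop, with a flip share of 36.4, 27.9, 33.6 and 29.8% in vehicle and 40.02, 39.6, 31.4 and 31.1% in KU55933. Per length the order of the genes was Gria3, Gria2, Gria1 and Gria4 from most to least flip by group means. By plain counts Gria1, at 40.3% in vehicle and 43.7% in KU55933, stood above Gria2, at 39.7% and 39.4%. Per length the ranges of Gria1 and Gria4 overlapped over the 8 libraries.

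No flip share passed the exact permutation test between the groups, which has the limit given for the subunit shares. The means were 39.7 ± 2.21% and 43.1 ± 2.76% for Gria1 (exact p = 0.114) and 62.7 ± 5.02% and 62.5 ± 2.86% for Gria2 (exact p = 0.943). They were 94.7 ± 2.34% and 93.9 ± 1.51% for Gria3 (exact p = 0.629) and 31.9 ± 3.79% and 35.5 ± 4.97% for Gria4 (exact p = 0.257). Adjusted over the 4 genes the permutation p were 0.457, 0.943, 0.838 and 0.514, and all 4 pairs of groups overlapped. The flip shares were not taken with the GC and length offset. That offset moved the log2 change of the Gria2 flop form from 0.26 to 0.12 and of the flip form from 0.24 to 0.19. The larger of these changes was thus that of flop without the offset and that of flip with it. The 2 highest flip shares of both Gria1 and Gria4 were those of KU55933 1 and 2, the libraries with high choroid plexus markers and the most negative GC slopes. The Gria4 difference of 3.59 percentage points was 2.10 without KU55933 1 and 2.22 without KU55933 2, and 2.26 without vehicle 2. The Gria3 difference of -0.853 points was -2.002 without vehicle 1 and -0.312 without vehicle 4. No share of long and short C-terminal forms could be given, because all complete flip and flop forms of a gene ended in the same residues.

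**Figure D4:**
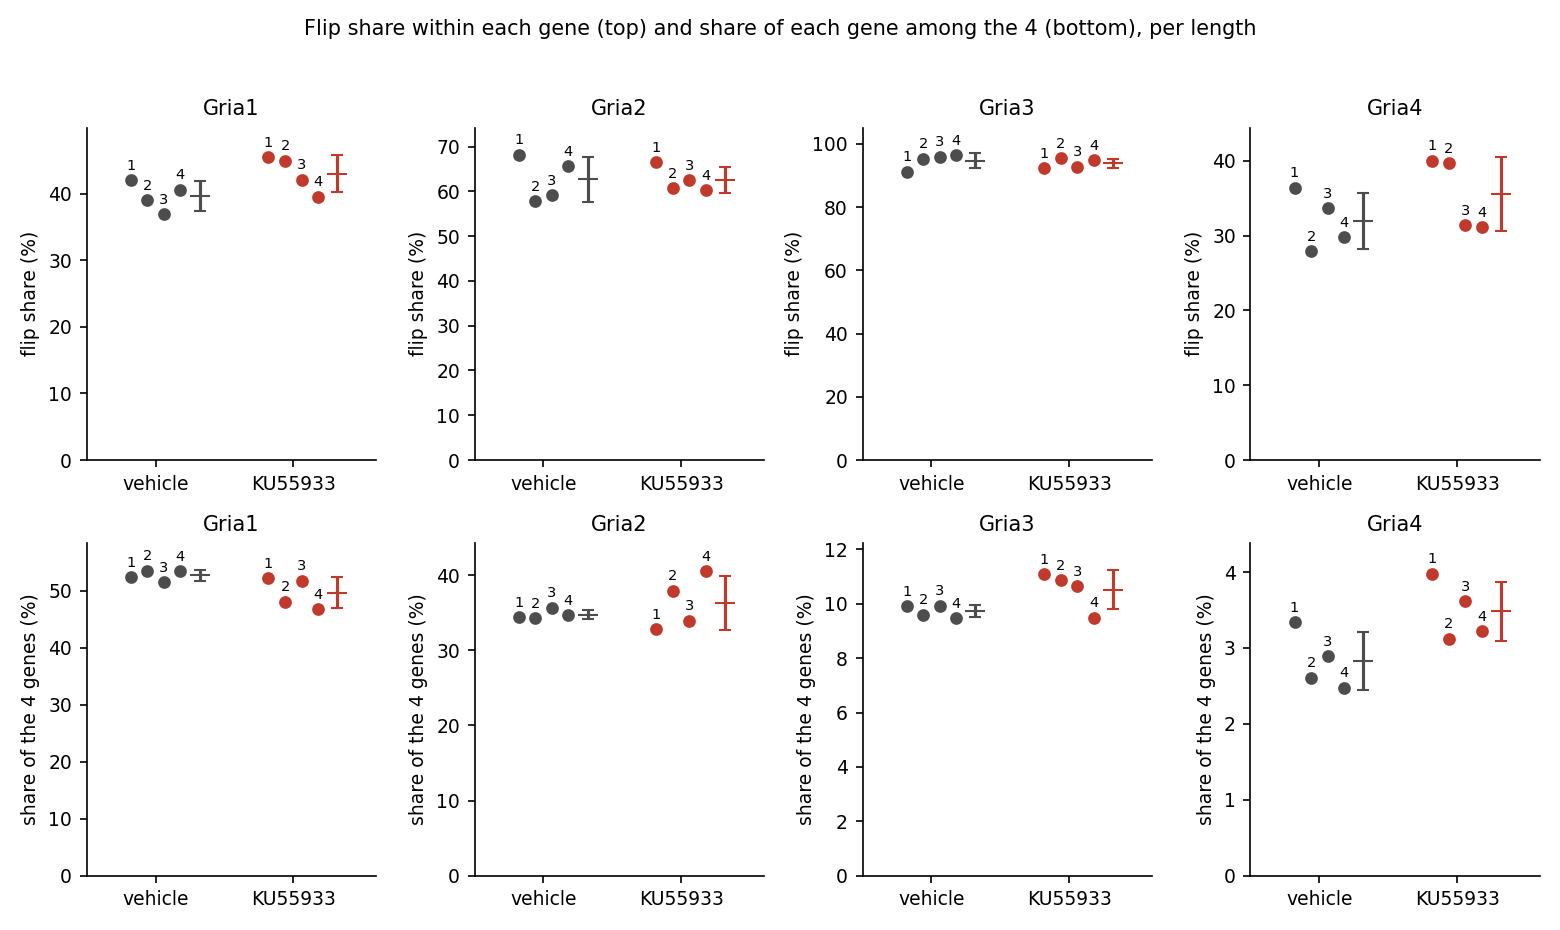
Flip share within each gene (top row, percent) and share of each gene among the 4 (bottom row, percent), both per length, in the 4 vehicle and 4 KU55933 libraries (x axis), with replicate numbers and mean ± SD bars. The flip share of Gria3, over transcripts with only one kind of cassette exon, is above 90% in all libraries. That of Gria4 is at 27.9 to 40.02%, and the groups overlap in all 8 panels.

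Across the 8 libraries the 4 genes were only loosely tied to each other. Pearson's r of log2 CPM was 0.66 between Gria3 and Gria4, 0.62 between Gria2 and Gria3, 0.50 between Gria1 and Gria3 and 0.47 between Gria2 and Gria4. It was 0.17 between Gria1 and Gria2 and -0.16 between Gria1 and Gria4. These values are descriptions over 8 libraries that share the 2 groups and the GC trend. The genes most like each member, among 10310 genes whose mean was 3 log2 CPM or more, were Tbc1d8b, Kcnj3 and Clmp for Gria1 (r = 0.96, 0.96 and 0.95). They were Galnt11, Amn1 and Dusp22 for Gria2 (r = 0.98, 0.98 and 0.97) and Aph1c, Raph1 and Epb41l4b for Gria3 (r = 0.98, 0.97 and 0.97). For Gria4 they were Vbp1, Trnt1 and Tmx3 (r = 0.99, 0.99 and 0.98).

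The proteins that assemble with the core subunits were counted in lists, beside 6.92% of all genes called higher and 14.6% called lower. Of 8 auxiliary subunit genes, the TARPs and cornichons that slow channel closing and carry receptors to the surface, 0 were higher and 3 lower, with a median log2 change of -0.06. Cacng8, the main TARP gene of the hippocampus, fell from 89.4 ± 19.7 to 44.5 ± 4.25 CPM (edgeR, adjusted p = 0.00156), but with the offset, at 66.0% GC, its log2 change was 0.52 and it was called higher (adjusted p = 0.0105). Cnih2, a cornichon that binds GluA1, fell from 318 ± 38.1 to 184 ± 24.5 CPM (edgeR, adjusted p = 0.00125), and with the offset its log2 change was 0.21 and did not pass. Both genes thus went the other way from Gria4 without the offset, and the difference between them and the core genes was not tested. Of 20 other genes of the receptor complex 2 were higher and 5 lower (median -0.14). The 4 with the smallest p were Cpt1c, Shisa8 and Prrt1, which were lower, and Sacm1l, which was higher, with log2 changes of -0.53, -2.25, -0.52 and 0.43. With the offset 1 was called, Prrt1, which was then higher (log2 change 0.43, edgeR adjusted p = 0.0385).

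Of 25 genes of AMPA receptor trafficking and anchoring 3 were higher and 1 lower (median 0.06). The anchor gene Dlg4, which encodes PSD-95, fell from 860 ± 22.8 to 655 ± 58.6 CPM and Dlg1, which encodes the GluA1 partner SAP97, rose from 92.7 ± 6.70 to 114 ± 7.47 CPM (edgeR, adjusted p = 0.00611 and 0.0232). Kif5b, a transport motor gene, and Rab11a, a recycling endosome gene, rose with log2 changes of 0.37 and 0.27. Of 12 genes of receptor phosphorylation 0 were higher and 2 lower (median 0.03). The 2 were Camk2b and Camk2a, which encode the kinase that acts on GluA1, with log2 changes of -0.56 and -0.29. Of 14 genes of RNA editing and isoform choice 2 were higher and 1 lower. The higher ones were Elavl2 and Elavl4, with log2 changes of 0.45 and 0.51, and the median of the list was 0.04. Adarb1, which encodes the enzyme that edits the GluA2 pore site, did not pass (log2 change 0.42, edgeR adjusted p = 0.31). With the offset 0 genes of these 3 lists were called, and these lists were not refitted with libraries left out.

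The other ionotropic glutamate receptor genes spread over a wider range of GC content than the AMPA subunit genes. Of 6 tested NMDA receptor genes 0 were higher and 3 lower (Grin1, Grin2c and Grin2d), with a median log2 change of -0.25. Of 5 kainate receptor genes 0 were higher and 2 lower (Grik4 and Grik5), with a median of 0.15, and of 2 delta receptor genes 0 were called. The 5 lower genes had 54.5 to 65.1% GC, above all 4 AMPA genes. A kainate receptor gene that was not called lay just below them, at 54.2% GC. The genes of the 3 families with 40.3 to 50.0% GC had log2 changes of -0.11 to 0.49. That range holds the 0.01 to 0.33 of the AMPA genes. With the offset 0 of the 5 lower genes were called lower, and Grin2d was called higher (log2 change 0.69, edgeR adjusted p = 0.0407).

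**Figure D5:**
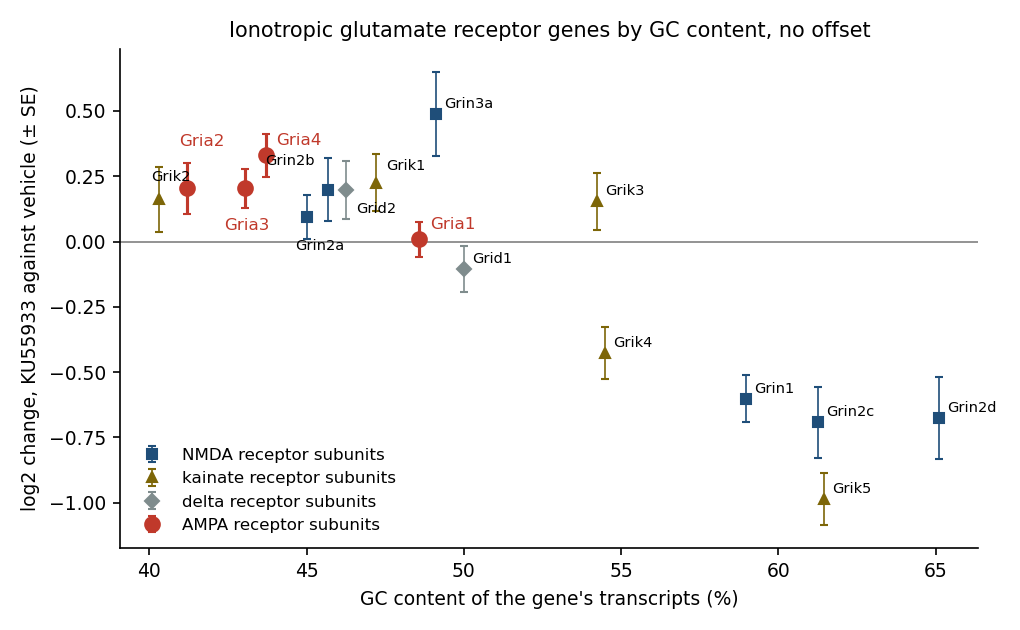
Log2 change of KU55933 against vehicle (y axis, ± SE, no offset) against GC content in percent (x axis) for the tested ionotropic glutamate receptor genes, with the 4 AMPA subunit genes as red circles. The AMPA genes lie between 41.2 and 48.6% GC, and the genes called lower in the other families lie at 54.5% or above.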

How the data were processed

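The authors deposited estimated counts per transcript (expected counts, in whole numbers) for 4 KU55933 and 4 vehicle libraries. Libraries were poly(A)-selected and stranded, per the labels' protocols. Per the submitters' processing notes, FastQC 0.11.9, Salmon 1.4.0, DESeq2 1.32.0 and build GRCm39 were used. The sources used here do not say how counts were rounded. The extraction text names input amounts for hypothalamus and PFC, while all samples are labelled hippocampus. The samples were grouped by their labelled treatment.

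Transcripts were summed per gene, filtered with filterByExpr and scaled by TMM. The groups were compared with the quasi-likelihood F test (two-sided, robust) of edgeR 4.0.16 in R 4.3.3, with limma 3.58.1, on 15481 genes, and in the same way on 45343 transcripts, with p-values adjusted by Benjamini-Hochberg and called below 0.05. CPM values use TMM-scaled library sizes. Lengths, GC content and exons came from GENCODE release 21 (GRCm38), which matched 99.7% of transcripts and 99.82% of counts. The offset took out a spline per library on GC content (6 df) and on length (5 df). Shares were compared by exact two-sided permutation.

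The 4 genes, the lists and the settings were chosen with earlier results of these data known. The genes named were the members, their transcripts of at least 1 CPM, the 3 genes most alike each, and up to 4 called genes per list with the smallest p. A gene that met this rule is not reported here. Other settings were upper-quartile or RLE scaling, no filter, 1 CPM in 4 libraries, non-robust dispersion, a replicate block, DESeq2 1.42.0, limma-voom, thinning to the smallest library, and each library left out. No pair of libraries was identical. Only the gene test without the offset was checked on simulated counts, which held no GC trend between libraries. The limit given for a count of 0 covers counting error only. Python 3.11.15, pandas 2.3.3, NumPy 2.4.6, Biopython 1.88, statsmodels 0.14.6 and matplotlib 3.10.9 were used.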

Additional observations from a re-analysis of the deposited data

Results flagged for a closer look

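In 4 of 58 groups of 4 values that were examined, 1 library lay far from the other 3, by Dixon's 95% criterion, which chance alone meets in about 1 of 20 groups. Vehicle 3 had 456 CPM of the flip form Gria1-201, against 521 to 528 CPM in the other vehicle libraries. Vehicle 1 had 42.4 CPM of the retained-intron form Gria2-204, against 76.1 to 78.3 CPM. Vehicle 3 had 187 CPM of the flip form Gria3-201, against 182 to 183 CPM, a gap that is small beside the level. Vehicle 1 had 6.62 CPM of the flop form Gria3-202, against 1.76 to 2.52 CPM.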

How the results depend on the processing

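The log2 change of Gria4 was positive in all settings tried, and its call ended with the GC and length offset (0.14), with a GC offset alone (0.15), without KU55933 1 and 2 together (0.31) and without vehicle 2 or 4, with a range of 0.28 to 0.40 over single libraries left out. Gria3 passed with DESeq2 (0.21) and turned with the offset (-0.013), where the range was -0.056 to 0.012 and a GC offset alone gave 0.0060. Gria2 passed with protein-coding transcripts only (0.29) and turned with the offset (-0.024) or a GC offset alone (-0.0045). Its offset value ranged from -0.13 to 0.035 and was 0.041 with protein-coding transcripts and 0.048 without KU55933 1 and 2. Gria1 ranged from -0.016 to 0.033 and was -0.11 with the offset, -0.082 with a GC offset alone and -0.046 without KU55933 1 and 2. The Gria2 flip share difference ranged from -1.81 to 1.65 percentage points. Of 92 alternatives for shares 0 passed, but a pass needed most of the 4 genes to reach the smallest p in the same setting. The Gria3 subunit share without KU55933 4 reached the smallest exact permutation p of 0.0286, and its adjusted p was 0.114. With the replicate block the exact p cannot fall below 0.125. The count of 0 therefore does not show that the shares were stable. Among 204 alternatives for 17 transcripts 0 became called and 4 turned direction, with ranges of -0.017 to 0.48 for Gria1-204, -0.25 to 0.15 for Gria2-203 and -0.40 to 0.15 for Gria2-204. The cause of these changes was not tested. Genes called numbered 3338 without and 304 with the offset, and transcripts 3065 and 935.

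Whether replicate numbers pair the samples was not tested. Libraries of the same number had correlations of 0.29, 0.08, 0.04 and 0.20, and those of different numbers had -0.22 to 0.11. With a replicate block 4444 genes were called by edgeR, against 3338 without it. With the replicate block Gria4 had a log2 change of 0.33 (edgeR, adjusted p = 0.00942) and no call of the 4 genes changed, while the uncalled Gria4-201 had -1.58. C-terminal shares gave no value. Thinned to the smallest library, Gria4 had a log2 change of 0.33 (edgeR, adjusted p = 0.0229).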
